A study of Homo sapiens with 18 samples.

Results

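The CCN genes encode secreted matricellular proteins, which sit in the extracellular matrix and signal to cells without forming its scaffold. The set described here is CYR61 (CCN1), CTGF (CCN2), NOV (CCN3), WISP1 (CCN4) and WISP2 (CCN5), taken by symbol from 2 deposited RNA-seq count tables, 1 for each of 2 human lung cancer cell lines. These are 5 genes of the 22219 that stood in at least 1 table. CYR61, CTGF and NOV were listed in both tables and WISP2 in the A549 table alone. WISP1 was in neither, so 3 of 5 members could be tested in H1299 and 4 of 5 in A549.

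CCN proteins share a modular build, with an insulin-like growth factor binding motif, a von Willebrand factor type C repeat and a thrombospondin repeat, closed in most members by a cystine knot. They bind integrins, syndecans and LRP receptors, and CYR61 and CTGF are the textbook targets of YAP and TAZ, the Hippo pathway coactivators that reach DNA through TEAD factors. YAP is encoded by YAP1 and TAZ by WWTR1.

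H1299 and A549 are established non-small cell lung cancer lines. The medium was RPMI-1640 for H1299 and DMEM for A549, each with serum and antibiotics. In each line the groups were siYAP, siTAZ and siControl, that is, transfection with a SMARTpool (a mixture of siRNAs to 1 gene) against YAP, with one against TAZ, or with control siRNA, all at 30 nM. Every group was harvested at 48 h and was without serum for the last 18 h. Each group had 3 replicate libraries, 18 in all, made from poly(A) RNA. The labels do not say whether replicates were separate cultures, so p-values measure the spread between libraries, which may be technical. The siYAP and siTAZ groups of a line share their siControl libraries.

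Assigned reads numbered 16.8 to 20.8 M per library in H1299 and 10.7 to 45.0 M in A549. Levels are given as CPM, counts per M assigned reads after TMM scaling. YAP1 was left at 14.4% to 24.0% of the siControl mean of its line in H1299 siYAP and at 26.5% to 33.5% in A549 siYAP. WWTR1 was left at 11.3% to 32.2% in H1299 siTAZ and at 28.8% to 40.0% in A549 siTAZ, on the same base. The gene that was not targeted also stood off its siControl mean in H1299: WWTR1 was at 65.0% to 79.0% in siYAP (edgeR adjusted p = 0.204, and 0.0398 with replicate number as a block) and YAP1 at 118% to 129% in siTAZ (adjusted p = 0.117, and 0.0316 with the block). Under DESeq2, WWTR1 in H1299 siYAP passed in neither fit (adjusted p = 0.415, and 0.229 with the block). YAP1 in H1299 siTAZ passed under DESeq2 only with the block (adjusted p = 0.114, and 0.0382 with it). In A549 WWTR1 was at 86.6% to 91.8% in siYAP and YAP1 at 100% to 108% in siTAZ. Neither passed there in either edgeR fit (adjusted p = 0.0846 and 0.703 with the block). The part of these levels in the differences between siYAP and siTAZ was not tested. Of the epithelial markers, KRT8 stood at 140.0 to 223 CPM in H1299 and 2350 to 3720 CPM in A549. KRT18 stood at 177 to 269 CPM in H1299 and 781 to 1750 CPM in A549. KRT7 was low in H1299 (1.55 to 2.66 CPM) and at 489 to 827 CPM in A549. CDH1 was not listed in H1299 while it reached 41.0 to 70.1 CPM in A549. EPCAM was low in both lines, at 0.112 to 0.66 CPM in H1299 and 0.836 to 4.38 CPM in A549. The leukocyte marker PTPRC and the alveolar surfactant genes SFTPB and SFTPC were listed in neither line, and the endothelial and fibroblast markers PECAM1, VWF, DCN, COL3A1 and PDGFRB were unlisted or at 4.89 CPM at most.

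The promoter of CTGF is shown because CTGF is the member matched in the RefSeq promoter table used here. TEAD, through which YAP and TAZ act, has a known short motif. The line below holds the 250 bases before the RefSeq start of CTGF (there named CCN2), chr6:131951373-131951622 on the minus strand of GRCh38.p14, 5′ to 3′. Capitals mark matches to the TEAD motif GGAATG, searched on both strands.
CTGF: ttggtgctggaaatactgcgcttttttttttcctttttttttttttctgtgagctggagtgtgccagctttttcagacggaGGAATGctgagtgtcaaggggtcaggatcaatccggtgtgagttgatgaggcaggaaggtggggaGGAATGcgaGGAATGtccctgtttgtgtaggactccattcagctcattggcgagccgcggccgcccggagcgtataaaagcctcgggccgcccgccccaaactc

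The window held 3 such matches, which start 169, 104 and 95 bases before the transcription start, the last 2 of them separated by 3 bases. Of 35116 RefSeq promoter windows of the same length, 11.9% held at least 1 match, 0.94% at least 2 and 0.0826% at least 3. A TATA box motif (TATAAA) starts 32 bases before the start, and 10.7% of the windows held this motif. No AP-1 motif (TGANTCA) and no SRF CArG box was found in these bases. The AP-1 motif was found in 6.57% of all windows and the CArG box in 1.16%. These are matches of letters and show no binding.

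**Figure D1:**
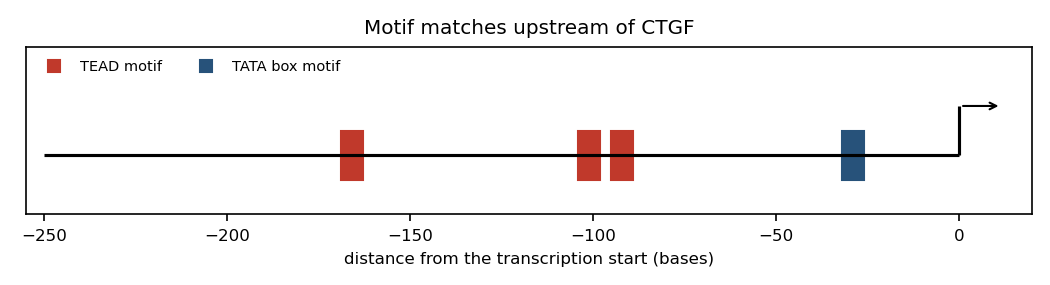
Positions of the motif matches in the 250 bases before the RefSeq transcription start of CTGF. The horizontal axis is the distance from the start in bases, red boxes are TEAD motif matches (starts at -169, -104 and -95) and the blue box is the TATA box motif (start at -32).

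All 5 members are protein-coding genes whose longest coding transcript has 5 exons in GENCODE release 29 (GRCh38). CYR61 (ENSG00000142871.16) lies on chromosome 1 at 85580761 to 85583962, plus strand. CTGF (ENSG00000118523.5) lies on chromosome 6 at 131948176 to 131951373, minus strand. NOV (ENSG00000136999.4) and WISP1 (ENSG00000104415.14) lie on the plus strand of chromosome 8, at 119416306 to 119424353 and 133191039 to 133231690, with 13.8 Mb between their starts. WISP2 (ENSG00000064205.10) lies on chromosome 20 at 44714844 to 44728509, plus strand. The coding sequence of WISP2 is 750 bp, against 1047 to 1143 bp in the others, and WISP2 is the member that lacks the cystine knot module. CTGF shares 195 exonic bases with an antisense gene, AL133346.1, and the strand setting of the counting is not given in the sources used here. That antisense gene had at most 0.477 CPM in H1299 and was not listed in A549.

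The lines held the family at different levels and in a different order. Between genes, levels are compared as CPM per kb of exon. In H1299 siControl libraries, CYR61 averaged 174 ± 60.3, CTGF 45.1 ± 7.91 and NOV 4.16 ± 0.967 CPM per kb (SD, n = 3), and the ranges of these 3 genes did not overlap. In A549 siControl libraries, NOV averaged 14.1 ± 4.94, CYR61 9.11 ± 1.56, CTGF 8.34 ± 3.65 and WISP2 7.21 ± 3.34 CPM per kb. Neighbours in the A549 order overlapped in range, although NOV was the highest of the 4 in each siControl library. The place of WISP2 depends on the length used, since its 6 transcripts span 4.98 kb of exon while its longest coding transcript has 1600 bases: on that shorter length WISP2 averaged 22.4 CPM per kb in A549 siControl libraries, above NOV at 15.0.

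Between the lines, siControl cells of H1299 had more CYR61 and CTGF and less NOV than those of A549. The CPM given here are scaled within each line, while the differences between lines come from 1 joint fit scaled over the genes in both tables, so ratios of the CPM are not the fitted folds. CYR61 had 504, 258 and 523 CPM in H1299 siControl libraries 1, 2 and 3, against 21.2, 19.3 and 26.6 CPM in A549 siControl (fitted log2 difference 3.96 ± 0.26 SE, 15.5-fold, adjusted p = 1.56e-10). CTGF had 117, 84.1 and 115 CPM in H1299, against 15.6, 13.6 and 29.3 CPM in A549 (2.15 ± 0.29, 4.44-fold, adjusted p = 2.46e-06). NOV had 10.2, 9.12 and 14.04 CPM in H1299, against 31.6, 28.7 and 52.9 CPM in A549 (-2.06 ± 0.31, 4.18-fold lower, adjusted p = 1.01e-05). In these CPM the groups did not overlap for any of the 3 genes. In that comparison 74.7% of all genes tested were called, at an adjusted p below 0.05 here and throughout. Line, culture medium and table cannot be told apart, and in bulk RNA fewer cells with a transcript and less transcript per cell cannot be told apart either.

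WISP2, in some cell types an estrogen- and Wnt-responsive gene, reached 26.2 to 55.1 CPM in A549 siControl libraries and had no row in the H1299 table. The lowest row maximum in that table was 6 counts, so an unlisted gene had at most 5 counts, or 0.238 to 0.298 CPM depending on the library. The same holds for WISP1 in H1299, and in A549 its limit was 0.108 to 0.472 CPM. WISP3 (CCN6), the remaining family gene and not among the 5 members, had 1 to 6 counts per library in H1299 and no row in A549, and was not tested.

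**Figure D2:**
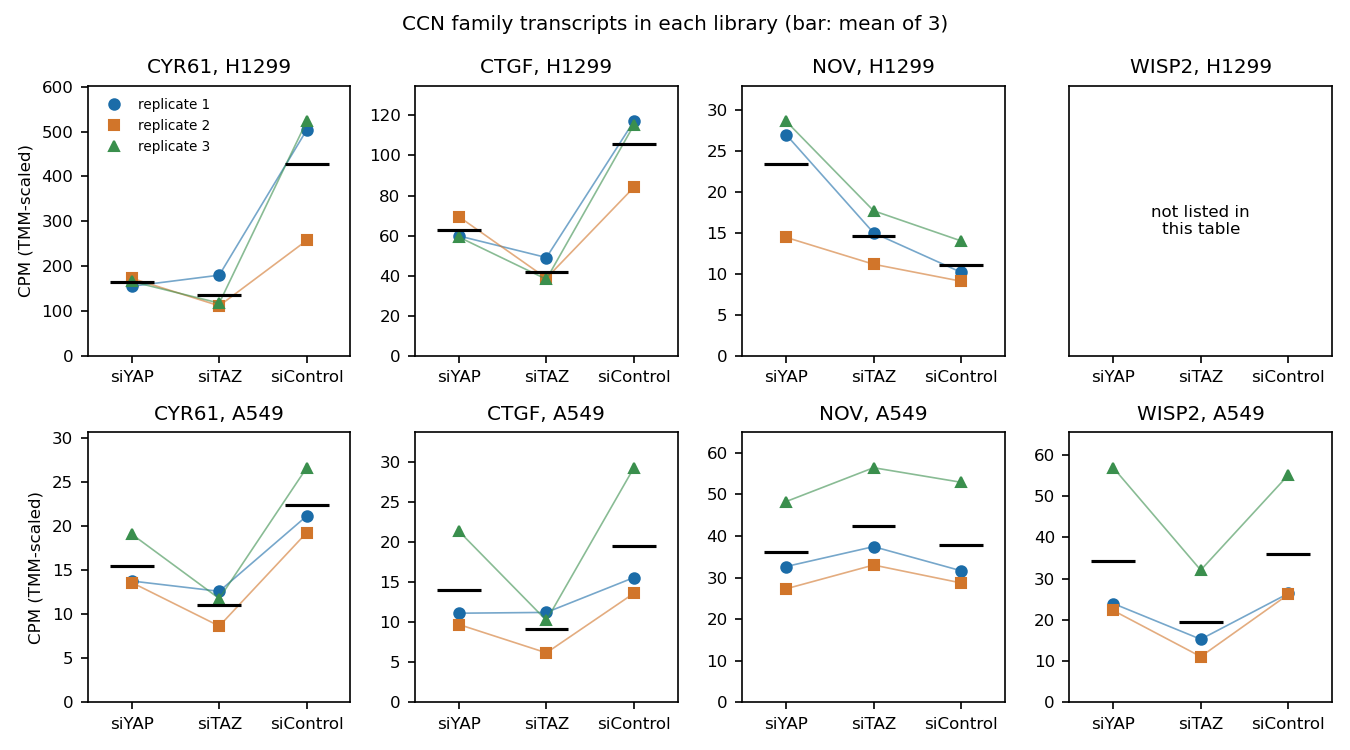
CPM of each listed member in each library, H1299 above and A549 below, with siYAP, siTAZ and siControl from left to right, 1 symbol per replicate number and a bar at the mean of 3. In H1299, CYR61 and CTGF are lower in each siYAP and siTAZ library than in any siControl library, and NOV in siYAP lies above all siControl libraries. In A549, replicate 3 is highest for CTGF, NOV and WISP2 in each group apart from CTGF in siTAZ.

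CYR61, an angiogenic ligand of integrins, fell with either knockdown in H1299. It had 155, 173 and 166 CPM in H1299 siYAP libraries 1, 2 and 3, and 180.0, 112 and 118 CPM in siTAZ, against 504, 258 and 523 CPM in siControl. No siYAP or siTAZ library reached the lowest siControl library, although siControl 2 stood at 0.501 times the mean of the other siControl libraries. The fitted change was -1.38 ± 0.23 after siYAP (2.6-fold lower, adjusted p = 0.00219) and -1.65 ± 0.23 after siTAZ (adjusted p = 0.000693). Same-numbered siYAP over siControl libraries gave log2 ratios of -1.70, -0.57 and -1.66, and siTAZ over siControl libraries -1.48, -1.20 and -2.15. Without siControl 2 the changes were -1.64 and -1.91, the largest of the 9 fits that leave out 1 library. The smallest of those fits gave -1.22 after siYAP and -1.48 after siTAZ. Between the 2 knockdowns CYR61 differed by 0.27 ± 0.22, siYAP over siTAZ, which did not pass (adjusted p = 0.481).

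CTGF, a fibrosis-associated ligand that also binds BMP4 and TGF-beta, fell in H1299 as well, and further with siTAZ than with siYAP. It had 59.9, 69.5 and 59.3 CPM in H1299 siYAP libraries and 49.1, 38.8 and 38.2 CPM in siTAZ, against 117, 84.1 and 115 CPM in siControl. All 3 groups were separate, with siTAZ lowest. Within a replicate number the log2 ratios to siControl were -0.97, -0.28 and -0.96 for siYAP and -1.25, -1.12 and -1.59 for siTAZ. The change was -0.75 ± 0.13 after siYAP (adjusted p = 0.00295) and -1.33 ± 0.13 after siTAZ (adjusted p = 0.000316). The difference between siYAP and siTAZ was 0.58 ± 0.13, or 1.5-fold (adjusted p = 0.0135), and it did not pass without siTAZ 3 (0.51, adjusted p = 0.0744). Over 15 alternatives, which change the scaling, filter, test, block or libraries used, its adjusted p ran from 0.00133 to 0.181.

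NOV, a ligand described as acting against CTGF in several tissues, moved the other way in H1299. It had 27.0, 14.5 and 28.7 CPM in siYAP libraries and 15.0, 11.2 and 17.7 CPM in siTAZ, against 10.2, 9.12 and 14.04 CPM in siControl. Each siYAP library lay above all siControl libraries, siYAP 2 by little, and siTAZ overlapped siControl. NOV rose after siYAP by 1.07 ± 0.24 on the log2 scale, or 2.1-fold (adjusted p = 0.0098). This call was lost without siYAP 1 (0.95, adjusted p = 0.0513) or siYAP 3 (0.91, adjusted p = 0.0539), while with the replicate number as a block, so that libraries of the same number are compared with each other, it was kept in each of 9 fits that leave out 1 library (adjusted p at most 0.00205). Over the 15 alternatives to the fit without the block, the adjusted p ran from 7.72e-05 to 0.0934.

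The change of NOV after siTAZ in H1299 was 0.39 ± 0.25 and did not pass (adjusted p = 0.264). Same-numbered siTAZ over siControl libraries gave log2 ratios of 0.56, 0.30 and 0.34. With the replicate block the change was 0.40 ± 0.13 (adjusted p = 0.0253). Over the 15 alternatives to the fit without the block, the block among them, the adjusted p ran from 0.0253 to 0.593. The call with the block was lost without siControl 1, siControl 3, siTAZ 1, siTAZ 2 or siTAZ 3 (0.27 to 0.44, adjusted p 0.0601 to 0.187). NOV was higher with siYAP than with siTAZ by 0.68 ± 0.23, short of the threshold in the fit that has no block (adjusted p = 0.0777). It passed with the block (0.65 ± 0.12, adjusted p = 0.00133), under DESeq2 (adjusted p = 0.0318) and without siYAP 2 (0.92, adjusted p = 0.00831). The adjusted p ran from 0.00133 to 0.296 over 15 alternatives, and was 0.0401 in the authors' deposited table.

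Counted over the H1299 members, 1 rose and 2 fell of 3 tested after siYAP, where 16.6% of all genes were called (28.3% with the block). After siTAZ 2 fell and none rose, where 23.3% were called. With the block, 1 rose and 2 fell, where 35.5% were called. Between siYAP and siTAZ 1 member was higher with siYAP, where 11.7% were called, and 2 were higher with the block, where 21.5% were called. Without all libraries numbered 3, which leaves 2 a group, CTGF after siTAZ was the only one of these calls that passed without the block (-1.2, adjusted p = 0.0352, over 15 alternatives at most 0.0352). With the block and without those libraries, all of them passed apart from NOV after siTAZ (0.43, adjusted p = 0.121).

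**Figure D3:**
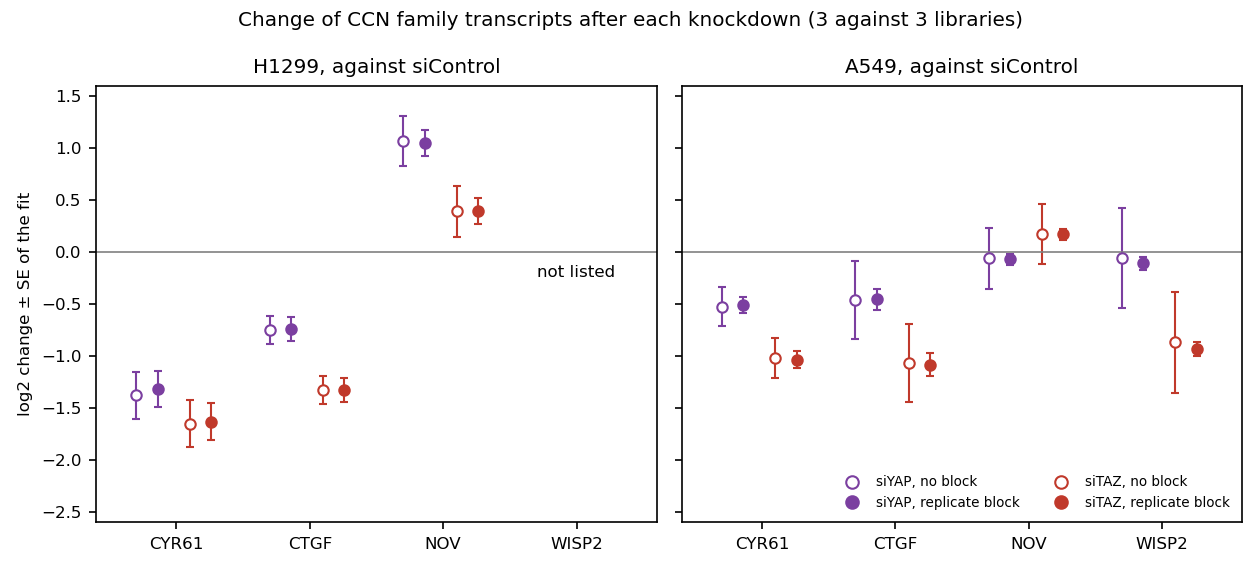
Log2 change of each member after siYAP (purple) and siTAZ (red) against siControl, ± SE of the fit, without (open) and with (filled) the replicate block. In H1299 the changes of CYR61 and CTGF lie below 0 and those of NOV above it, and in A549 the block leaves the changes nearly in place while the SE of WISP2 after siTAZ is 0.07 with the block and 0.49 without it.

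In A549 the libraries numbered 3 stood apart for several members. For NOV they held 1.6 to 1.75 times and for WISP2 2.1 to 2.46 times the mean of the other replicates of their group, whatever the siRNA. Libraries of 1 number deviated together across groups (correlations of 0.384 to 0.729 over genes). The spread within a group is therefore wide without the block. What the number stands for in the laboratory is not given in the sources used here.

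Without the block, no A549 member passed in any of the 3 comparisons in edgeR's quasi-likelihood test. Calls were rare in general there, at 0.00625% of genes after siYAP, 0.00625% after siTAZ and 0.0125% between siYAP and siTAZ, which were 1, 1 and 2 genes. At an unadjusted p below 0.05 there were 410, 701 and 558 genes, and DESeq2 called 4, 43 and 18, with CYR61 after siTAZ among the 43. With the block, 5.68%, 13.3% and 7.04% of genes were called. Of the 4 members, 2 fell after siYAP, 3 fell and 1 rose after siTAZ, and 3 were higher and 1 was lower with siYAP than with siTAZ. Without the libraries numbered 3, these calls held with the block apart from CTGF between siYAP and siTAZ (0.33, adjusted p = 0.138).

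CYR61 in A549 had 13.8, 13.6 and 19.1 CPM in siYAP libraries and 12.6, 8.67 and 11.8 CPM in siTAZ, against 21.2, 19.3 and 26.6 CPM in siControl. All siTAZ and siYAP libraries lay below the lowest siControl library. In the fit with the block the change was -0.51 ± 0.08 after siYAP (adjusted p = 2.97e-05) and -1.03 ± 0.08, or 2.05-fold lower, after siTAZ (adjusted p = 5.57e-12). Without the block these were -0.52 ± 0.19 (adjusted p = 1.0, over 15 alternatives 2.97e-05 to 1.0) and -1.02 ± 0.19 (adjusted p = 0.271, over 15 alternatives 5.57e-12 to 0.993). With the block CYR61 was higher with siYAP than with siTAZ by 0.53 ± 0.08 (adjusted p = 4.65e-05). Over the 15 alternatives to the fit without the block, the adjusted p of this difference ran from 4.65e-05 to 1.0. Leaving out 1 library at a time ended none of these 3 calls made with the block. In the authors' deposited table CYR61 passed in all 3 comparisons (adjusted p = 0.000489 after siYAP and 0.00166 between siTAZ and siYAP).

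CTGF in A549 had 11.1, 9.73 and 21.4 CPM in siYAP libraries and 11.2, 6.19 and 10.2 CPM in siTAZ, against 15.6, 13.6 and 29.3 CPM in siControl. The siTAZ libraries lay below all siControl libraries, and siYAP overlapped siControl through library 3. Within a replicate number, CTGF was lower in siYAP by a nearly constant log2 ratio of -0.49, -0.49 and -0.45, and in siTAZ by -0.47, -1.14 and -1.52. With the block the change was -0.45 ± 0.10 after siYAP (adjusted p = 0.00454, over 15 alternatives to the fit without it 0.00454 to 1.0). That call was lost without siControl 2 (adjusted p = 0.0776), siControl 3 (adjusted p = 0.0755) or siYAP 2 (adjusted p = 0.157), and it was not made by DESeq2 with the block (adjusted p = 0.376) or in the authors' deposited table (adjusted p = 0.622).

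After siTAZ the change of CTGF in A549 was -1.08 ± 0.11 with the block (2.12-fold lower, adjusted p = 3.23e-09) and -1.07 ± 0.38 without it (adjusted p = 0.913, over 15 alternatives 3.23e-09 to 1.0). CTGF was higher with siYAP than with siTAZ by 0.63 ± 0.11 with the block (adjusted p = 0.000259). Over the 15 alternatives to the fit without the block, its adjusted p ran from 0.000259 to 1.0. With the block, that difference was lost without siTAZ 3 (0.33, adjusted p = 0.0534) and under DESeq2 (adjusted p = 0.276). In the authors' deposited table CTGF passed after siTAZ (adjusted p = 0.0018) and not between siTAZ and siYAP (adjusted p = 0.434). In replicate 1 siYAP stood at 99.1% of siTAZ, and in replicate 3 at 209%.

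NOV in A549 had 32.7, 27.3 and 48.3 CPM in siYAP libraries and 37.4, 33.0 and 56.4 CPM in siTAZ, against 31.6, 28.7 and 52.9 CPM in siControl. The 3 groups overlapped. With the block the change after siYAP was -0.07 ± 0.05 and did not pass (adjusted p = 0.554). After siTAZ NOV was higher in each replicate number, at 118%, 115% and 107% of siControl. It rose by 0.17 ± 0.05 with the block (adjusted p = 0.0198, over 15 alternatives to the fit without it 0.0198 to 1.0). This call was lost without siControl 1, siControl 2, siTAZ 1 or siTAZ 2 (0.14 to 0.17, adjusted p 0.0891 to 0.155), under DESeq2 with the block (adjusted p = 0.118) and in the authors' deposited table (adjusted p = 0.192). With the block NOV was lower with siYAP than with siTAZ (-0.24 ± 0.05, adjusted p = 0.00224). Over the 15 alternatives to the fit without the block, the adjusted p ran from 0.00224 to 1.0. The call with the block was lost without siYAP 2 (-0.22, adjusted p = 0.0732). This difference passed in the authors' deposited table (adjusted p = 0.032).

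With the replicate block WISP2, like the other members tested in A549, differed between the 2 knockdowns. It had 24.0, 22.3 and 56.9 CPM in siYAP libraries and 15.3, 11.1 and 32.1 CPM in siTAZ, against 26.4, 26.2 and 55.1 CPM in siControl. Levels overlapped between groups because of library 3, yet in each replicate number siTAZ was the lowest, at 58.0%, 42.4% and 58.2% of siControl. With the block WISP2 fell after siTAZ by 0.93 ± 0.07 on the log2 scale, or 1.91-fold (adjusted p = 1.92e-12), and the change after siYAP was -0.11 ± 0.06 and did not pass (adjusted p = 0.373). WISP2 was higher with siYAP than with siTAZ by 0.82 ± 0.07 with the block, or 1.77-fold (adjusted p = 9.81e-11).

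Without the block the changes of WISP2 were -0.87 ± 0.49 after siTAZ (adjusted p = 1.0, over 15 alternatives 1.92e-12 to 1.0) and 0.81 ± 0.49 between siYAP and siTAZ (adjusted p = 1.0, over 15 alternatives 9.81e-11 to 1.0). With the block, both WISP2 calls held in each of the 9 fits that leave out 1 library and without all libraries numbered 3 (-1.03, adjusted p = 1.42e-10, and 0.83, adjusted p = 7.77e-08). The authors' deposited table has -0.94 for siTAZ over siControl and -0.82 for siTAZ over siYAP, on the log2 scale. Both passed there (adjusted p = 7.6e-15 for siTAZ over siYAP). WISP2 lies within an antisense gene, KCNK15-AS1, with which it shares no exonic base and which had 0.283 to 0.625 CPM in A549.

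The difference between the lines was tested as an interaction, the H1299 effect minus the A549 effect, over the 3 members in both tables. For NOV after siYAP it was 1.13 ± 0.43 without the block (adjusted p = 0.335) and 1.12 ± 0.13 with it (adjusted p = 2.7e-05). Over 24 alternatives to the fit without the block, the adjusted p ran from 2.7e-05 to 0.614. The NOV difference with the block held in each of 18 fits that leave out 1 library, without all libraries numbered 3 (1.1, adjusted p = 0.0143) and under DESeq2 with the block (adjusted p = 9.91e-11). For CYR61 after siYAP the difference was -0.86 ± 0.34 without the block (adjusted p = 0.359) and -0.81 ± 0.24 with it (adjusted p = 0.036). Over the same 24 alternatives to the fit without the block, the adjusted p ran from 0.036 to 0.673.

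The CYR61 difference was lost in 9 of the 18 fits with the block that leave out 1 library, with an adjusted p of 0.0792 to 0.138. These were the fits without H1299 siControl 1 or 3, H1299 siYAP 1 or 3, A549 siControl 1, 2 or 3, or A549 siYAP 2 or 3. DESeq2 with the block did not call it either (adjusted p = 0.109). CTGF after siYAP had a difference of -0.28 ± 0.20 with the block (adjusted p = 0.398). After siTAZ none of the 3 members passed with the block, with differences of -0.61 ± 0.25 for CYR61 (adjusted p = 0.0988), -0.27 ± 0.21 for CTGF (adjusted p = 0.397) and 0.22 ± 0.13 for NOV (adjusted p = 0.27). For CYR61 the difference after siTAZ passed with the block without H1299 siControl 2 (-0.84, adjusted p = 0.00131), H1299 siYAP 2 (-0.57, adjusted p = 0.0285) or H1299 siTAZ 1 (-0.79, adjusted p = 0.0454).

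Among all genes, 0.0822% were called for the line difference after siYAP and 0.379% after siTAZ without the block, where no member was called (1708 and 2376 genes had an unadjusted p below 0.05, and DESeq2 called 128 and 316). With the block 10.8% and 17.7% were called, and 2 of 3 members passed after siYAP and 0 of 3 after siTAZ.

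The make-up of the family signal moved with these changes. Summed over the listed members, H1299 held 103 ± 3.41 CPM per kb in siYAP and 79.0 ± 18.2 in siTAZ, against 224 ± 68.9 in siControl. CYR61 made up 65.3% ± 1.4 of that sum in siYAP and 69.9% ± 3.08 in siTAZ, against 77.2% ± 3.87 in siControl. The share of NOV was 8.54% ± 2.96 in siYAP and 7.1% ± 1.98 in siTAZ, against 1.93% ± 0.446 in siControl, without overlap of either group with siControl. The level of NOV in siTAZ did overlap siControl (14.6 against 11.1 CPM on average), while the sum that the share is taken of was lower.

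In A549 the sum was 32.7 ± 11.9 CPM per kb in siYAP and 28.2 ± 8.05 in siTAZ, against 38.8 ± 13.5 in siControl. Per kb of exon NOV was the leading member, with 41.8% ± 2.85 of the sum in siYAP and 56.3% ± 4 in siTAZ, against 36.4% ± 0.173 in siControl. These NOV shares did not overlap between the 3 groups, while its levels did. WISP2 made up 20.2% ± 3.86 in siYAP and 13.2% ± 3.74 in siTAZ, against 18.1% ± 2.08 in siControl. On the length of the coding transcript the NOV share averaged 30.3% in siYAP and 45.1% in siTAZ, against 27.1% in siControl, and the WISP2 share 42.6% in siYAP and 30.8% in siTAZ, against 39.6% in siControl. On that length WISP2 led in siYAP and siControl, and the NOV shares of siYAP (26.5% to 33.4%) and siControl (26.4% to 27.9%) overlapped. These shares were not tested.

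**Figure D4:**
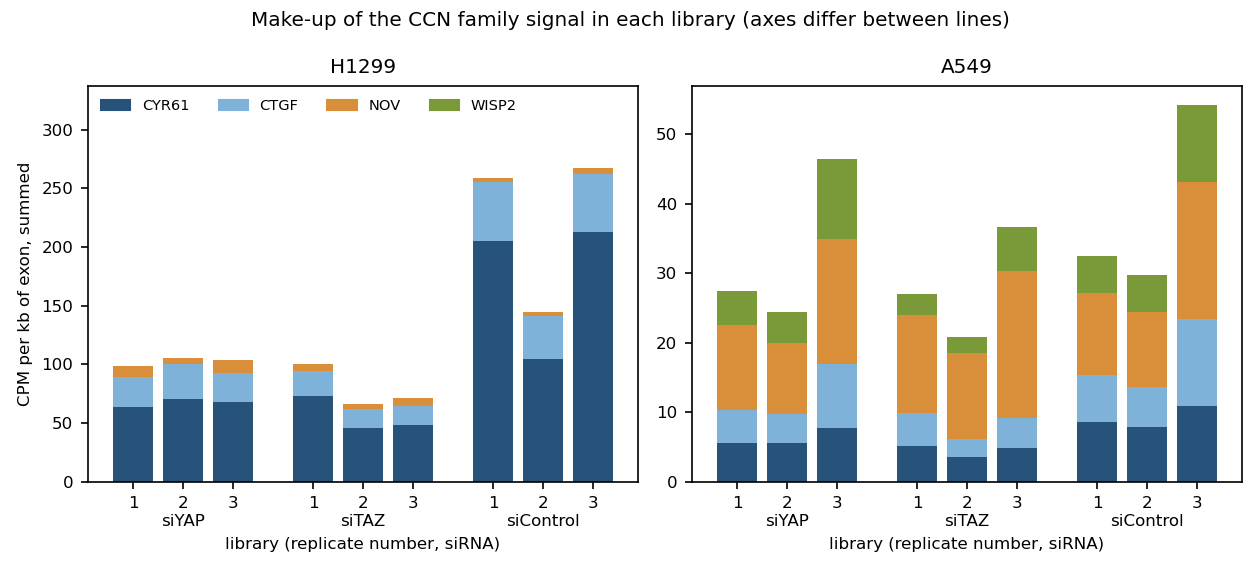
CPM per kb of exon of each listed member, stacked, in each library of H1299 (left) and A549 (right), on axes of different height. CYR61 (dark blue) makes up most of each H1299 bar and NOV (orange) is the largest part of each A549 bar, and the H1299 siControl bars reach 144 to 268 while those of siYAP and siTAZ stay at or below 106.

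Across libraries CYR61 and CTGF moved together in both lines. Their log2 CPM had a Pearson correlation of 0.95 over the 9 H1299 libraries and of 0.94 over the 9 A549 libraries. For CYR61 and NOV it was -0.40 in H1299 and 0.20 in A549. In A549 WISP2 had correlations of 0.88 with CTGF, 0.78 with CYR61 and 0.62 with NOV. These describe libraries that share 3 siRNA groups, and in A549 also the high level of libraries numbered 3.

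Ranked over all 18 libraries after centring on the mean of each line, among the 9543 protein-coding genes that averaged 5 CPM or more in both lines, the gene most like CYR61 was CAV1 (caveolin 1), with a correlation of 0.95. CTGF (0.91), TXNRD1 (0.90), IL1RAP (0.89) and HERC4 (0.88) followed. For CTGF the order was CYR61 (0.91), CAV1 (0.89), FGF2 (0.86), MYOF (0.85) and CYTH3 (0.85). For NOV it was TMEM136 (0.94), ANKRD52 (0.93), ABCA3 (0.93), CROT (0.93) and HGS (0.92), a set with no gene in common with the other 2 sets. These correlations carry no test. Centring was on the line and not on the replicate number. NOV in A549 libraries numbered 3 held 1.6 to 1.75 times the mean of the other replicates of their group. The part of the replicate number in the correlations was not tested.

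**Figure D5:**
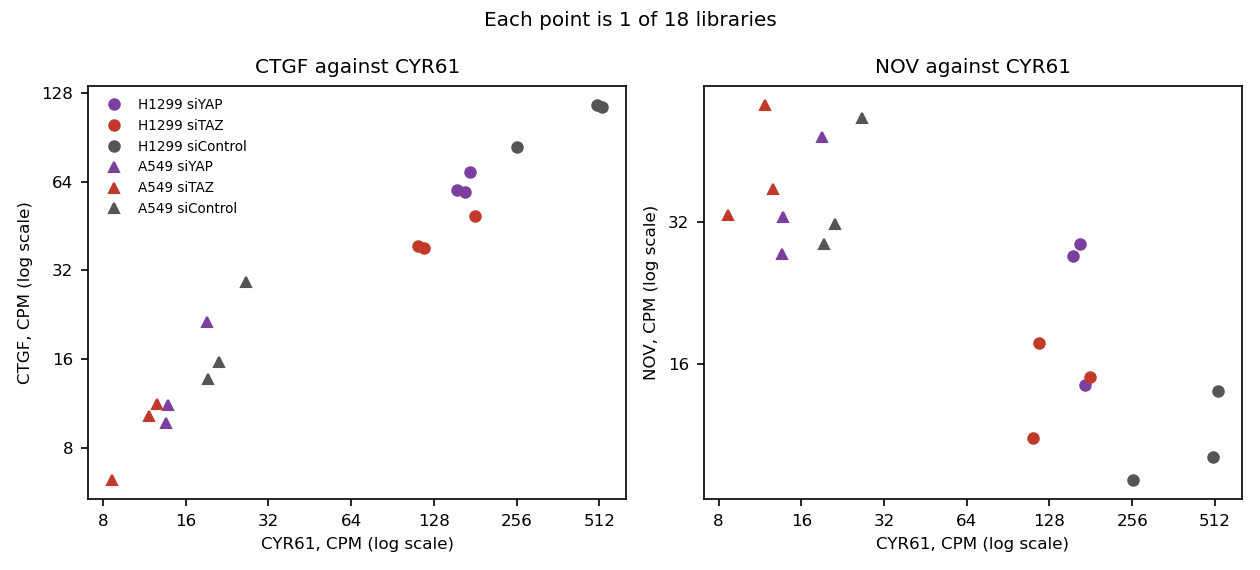
CTGF (left) and NOV (right) against CYR61 in CPM on log axes, 1 point per library, with colour for the siRNA and circles for H1299 and triangles for A549. CTGF and CYR61 lie along a band in both lines (correlation 0.95 in H1299 and 0.94 in A549), and NOV shows no such band (-0.40 and 0.20).

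Receptors of CCN proteins were tested for 15 of 17 listed in H1299. The counts of this list and of the lists after it stand beside the share of all genes called: in H1299 16.6% after siYAP and 23.3% after siTAZ (28.3% and 35.5% with the block), and in A549 with the block 5.68% after siYAP and 13.3% after siTAZ. In H1299 siYAP, 3 receptors rose and 1 fell (median log2 change 0.06, against 0.01 over all genes). LRP1, an endocytic receptor that binds CTGF, rose by 1.09 ± 0.14 on the log2 scale (adjusted p = 0.00081). The integrin subunit ITGA5 had 338 ± 59 CPM in siYAP and 211 ± 21.6 CPM in siControl (0.68 ± 0.16, adjusted p = 0.0131), ITGA2 rose too (0.87 ± 0.20), and ITGAV, a subunit of receptors for CYR61 and CTGF, fell (-0.48 ± 0.12, adjusted p = 0.0192).

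After siTAZ in H1299, 5 receptors rose and none fell (median 0.36), among them ITGB3 (5.27 ± 0.877 CPM in siTAZ, 2.83 ± 0.469 in siControl), ITGA2 (0.89 ± 0.20), ITGB5 (0.45 ± 0.11) and LRP1 (0.53 ± 0.14, adjusted p = 0.0159). With the block, 4 rose and 2 fell after siYAP, and 9 rose and 1 fell after siTAZ. In A549 with the block, of 16 tested, LRP1 rose after siYAP (0.16 ± 0.04, adjusted p = 0.0162), and 6 rose after siTAZ, with ITGA2 (0.32 ± 0.04), LRP1 (0.31 ± 0.04), ITGA5 (0.28 ± 0.06) and LRP6 (0.17 ± 0.04) first. None passed in A549 without the block.

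Binding partners of CCN proteins and proteases that cut them formed 1 list. After siTAZ in H1299, 6 rose and 1 fell of 12 tested (median 0.87, against 0.01 over all genes), where 23.3% of all genes were called. MMP14 had 522 ± 9.14 CPM in siTAZ and 229 ± 34.4 in siControl (1.19 ± 0.11, adjusted p = 0.00022), MMP2 rose by 1.28 ± 0.17 (adjusted p = 0.000565) and MMP1 by 1.14 ± 0.18 (adjusted p = 0.00133), while the growth factor FGF2 fell by 0.89 ± 0.14 (adjusted p = 0.00134). After siYAP 1 rose and 2 fell: MMP14 (0.88 ± 0.11) rose, and TGFB1 (-0.32 ± 0.09) and FGF2 (-0.44 ± 0.14) fell. The counts with the block were 3 higher and 3 lower after siYAP (28.3% of all genes called), and 8 higher and 1 lower after siTAZ (35.5%).

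In A549, of 13 partners and proteases tested, only FN1 (fibronectin, 0.17 ± 0.04, adjusted p = 0.00797) passed after siYAP with the block. After siTAZ 5 rose and 1 fell with the block. FN1 had 1290 ± 203 CPM in siTAZ and 879 ± 183 in siControl (0.57 ± 0.04, adjusted p = 1.27e-12), MMP2 rose by 0.86 ± 0.09, BMP4 by 0.19 ± 0.06, and FGF2 fell by 0.38 ± 0.05. None of them passed without the block.

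Proteins that share CCN modules (IGF binding proteins, thrombospondins, CRIM1, gremlins and others) were mixed. In H1299 4 rose and 2 fell of 14 tested after siYAP (median 0.22, 16.6% of all genes called), with THBS3 (0.88 ± 0.12), HTRA1 (0.57 ± 0.09), IGFBP6 (0.74 ± 0.13) and THBS4 (0.93 ± 0.20) first. After siTAZ 3 rose and none fell (median 0.03, 23.3% of all genes called): HTRA1 (0.65 ± 0.09), THBS3 (0.62 ± 0.12) and THBS4 (0.62 ± 0.20). The counts with the block were 5 and 2 after siYAP, and 4 and 3 after siTAZ. In A549 with the block, of 16 tested, THBS3 rose (0.32 ± 0.07) and GREM1, a BMP antagonist, fell (-0.47 ± 0.06) after siYAP. After siTAZ 5 rose and 2 fell, with CRIM1 (-0.43 ± 0.04), IGFBP3 (0.39 ± 0.05), GREM1 (-0.38 ± 0.05) and HTRA1 (0.23 ± 0.04) first. None of these passed in A549 without the block.

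Among 20 upstream factors, all tested in both lines, none rose and 3 fell after siYAP in H1299 (median -0.22, 16.6% of all genes called), namely YAP1 itself, TEAD1 (-0.49 ± 0.12) and TEAD4 (-0.40 ± 0.10). After siTAZ 3 rose and 3 fell (median -0.12, 23.3% of all genes called), with WWTR1 (-2.38 ± 0.28), VGLL4, a TEAD-binding repressor (0.70 ± 0.13), TEAD4 (-0.53 ± 0.10) and JUNB (0.64 ± 0.13) first. With the block the counts in H1299 were 1 higher and 11 lower after siYAP (28.3% of all genes called), and 6 and 6 after siTAZ (35.5%). In A549 with the block, YAP1, TEAD1 (-0.18 ± 0.04) and TEAD4 (-0.31 ± 0.07) fell after siYAP and none rose. After siTAZ 5 rose and 4 fell, with WWTR1 (-1.63 ± 0.06), TEAD1 (-0.31 ± 0.04), FOS (0.65 ± 0.09) and SMAD3 (-0.18 ± 0.04) first. The targeted gene was the only factor called in A549 without the block, in either knockdown. In each knockdown the counts of factors that fell include the targeted gene, which the siRNA lowers by design.

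Of the other genes of common YAP and TAZ signatures, 1 rose and 5 fell of 18 tested in H1299 after siYAP (median -0.12, 16.6% of all genes called), with CCDC80 (0.74 ± 0.11), GADD45A (-0.44 ± 0.10), TGFB2 (-0.90 ± 0.23) and IGFBP3 (-1.10 ± 0.30) first. After siTAZ 2 rose and 4 fell (median -0.12), with CCDC80 (0.88 ± 0.11), RBMS3 (0.56 ± 0.14), TGFB2 (-0.80 ± 0.23) and ASAP1 (-0.32 ± 0.09) first. With the block the counts were 3 and 6 after siYAP, and 3 and 7 after siTAZ. In A549 with the block, 6 of 20 fell and none rose after siYAP, where 5.68% of all genes were called, AMOTL2 (-0.52 ± 0.06), MYOF (-0.26 ± 0.04), TGFB2 (-0.31 ± 0.06) and ARHGEF17 (-0.20 ± 0.06) among them. After siTAZ 9 fell and 2 rose, where 13.3% of all genes were called. ANKRD1 had 4.63 ± 2.87 CPM in siTAZ and 14.1 ± 9.24 in siControl (-1.62 ± 0.11, adjusted p = 2.36e-13), and AMOTL2 (-0.90 ± 0.06), MYOF (-0.44 ± 0.04) and CRIM1 (-0.43 ± 0.04) followed. None of the 20 passed in A549 without the block. IGFBP3 and CRIM1 stand in this list and in that of the module relatives.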

How the data were processed

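Poly(A) RNA of 18 libraries (3 per line and siRNA) was sequenced. Per the submitters' processing notes the tools were cutadapt, STAR 2.4.2a and DESeq2 with genome build GRCh38. How reads were counted, on which annotation and with which strand setting is not given in the sources used here. For each line 1 table was deposited by the authors, with raw counts per gene and library, beside their own log2 fold changes and p-values for the pairs of groups. The raw counts were analysed, and the authors' values are printed only where named. For the members, the authors' A549 log2 changes match DESeq2 with the replicate block (WISP2 after siTAZ -0.94, against -0.88 without it). Their H1299 log2 changes match DESeq2 without the block (CYR61 after siYAP -1.39, against -1.33 with it). The count tables list genes that reach 6 in at least 1 library, 18978 genes in H1299 and 20335 in A549, and 97.9% of the symbols in each matched GENCODE release 29.

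Genes were filtered by filterByExpr (15775 tested in H1299, 16008 in A549) and tested in edgeR 4.0.16 (quasi-likelihood F test, TMM scaling, R 4.3.3). Each line was fitted over its 9 libraries. Lines were compared in a joint fit of 18 libraries over 15816 of the 17094 genes in both tables. The Benjamini-Hochberg adjustment of p-values ran over every gene tested in a fit. CPM means are given ± SD and log2 changes ± the SE of the fit. This SE was derived as the size of the change over the square root of its F statistic. Code was tested on simulated data. Replicates differed by more than sampling noise (chi-square per degree of freedom at least 6.54).

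Replicate numbers are shared by the groups in the labels, and sample descriptions share a prefix within a number, whose meaning is not stated. Deviations from group means correlated between same-numbered libraries at 0.108 to 0.383 in H1299 (median 0.221) and 0.384 to 0.729 in A549 (median 0.528), against -0.324 to 0.16 and -0.55 to 0.279 between other numbers. Every pair was above 0.1, so the numbers were taken to pair the libraries, and a fit with the number as a block within line is given where it changes a call.

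Named genes are the members, YAP1 and WWTR1, the 4 genes of each list with the smallest adjusted p among those that passed, and the 5 genes most like each member. The members and lists were chosen with earlier results of these data known. Alternatives were another scaling (DESeq2 size factors), DESeq2 1.42.0 as the test, no filter, only the groups compared, the block, leaving out each library in turn and leaving out all libraries numbered 3. Fits that combine the block with a left-out library or with DESeq2, and shares on another transcript length, were chosen after seeing the data. CTGF was the 1 member matched in the RefSeq promoter table (GRCh38.p14).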

Additional observations from a re-analysis of the deposited data

Results flagged for a closer look

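The effect of siYAP on NOV differed between the lines in the test of the difference itself, with the replicate block (H1299 effect minus A549 effect 1.12 ± 0.13, adjusted p = 2.7e-05). NOV had 27.0, 14.5 and 28.7 CPM in H1299 siYAP and 10.2, 9.12 and 14.04 CPM in H1299 siControl, and 32.7, 27.3 and 48.3 CPM in A549 siYAP and 31.6, 28.7 and 52.9 CPM in A549 siControl. The effect of siYAP on CYR61 also differed with the block (-0.81 ± 0.24, adjusted p = 0.036), and this was lost in 9 of 18 fits that leave out 1 library, named in the report. Neither difference passed without the block. Line, medium and table cannot be told apart in either.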

How the results depend on the processing

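Directions of the H1299 changes of CYR61, CTGF and NOV held under each alternative run, and the direction of CYR61, CTGF and WISP2 after siTAZ and CYR61 and CTGF after siYAP in A549 as well. In alternatives to the fit without the block, member results kept their direction and their status, called or not called, 497 times. They gained a call 17 times, lost one 8 times and turned 9 times. With the block they kept both 376 times, lost a call 30 times, gained one 3 times and turned 2 times. The 497 and the 376 include results that were called in neither of the fits compared. The cause of each move was not tested, unless the smaller number of libraries is the setting itself.

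With the replicate block the calls in H1299 were 4460 after siYAP, 5606 after siTAZ and 3399 between them, in A549 909, 2134 and 1127, and for the line differences 1712 and 2797. The block brought past the threshold NOV in H1299 after siTAZ (0.40) and between siYAP and siTAZ (0.65), and in A549 CYR61 (-0.51) and CTGF (-0.45) after siYAP, CYR61 (-1.03), CTGF (-1.08), NOV (0.17) and WISP2 (-0.93) after siTAZ, CYR61 (0.53), CTGF (0.63), NOV (-0.24) and WISP2 (0.82) between them, and the line differences after siYAP of CYR61 (-0.81) and NOV (1.12). It changed no other call of a member. DESeq2 called 4, 43 and 18 genes in A549 and 128 and 316 line differences, and passed NOV between siYAP and siTAZ in H1299 (0.67) and CYR61 after siTAZ in A549 (-1.02). A fit of only the compared groups called 0 and 2 line differences.

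Without all libraries numbered 3, which leaves 2 libraries a group, H1299 calls numbered 34 after siYAP, 144 after siTAZ and 190 between them, A549 calls after siTAZ 4, and line differences 1 and 0. In H1299 CYR61 (-1.21), CTGF (-0.64) and NOV (1.1) after siYAP, CYR61 after siTAZ (-1.38) and CTGF between siYAP and siTAZ (0.56) then did not pass. With the block NOV after siTAZ in H1299 (0.43), CTGF between siYAP and siTAZ in A549 (0.33) and the CYR61 line difference after siYAP (-0.59) did not pass.

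Leaving out 1 library gave 1124 to 3076 calls in H1299 after siYAP (lowest without siYAP 1), 1715 to 4301 after siTAZ (siTAZ 3) and 856 to 2102 between them (siYAP 3), 1 to 2 in A549 after siTAZ, 0 to 130 line differences after siYAP and 1 to 254 after siTAZ. The H1299 changes ran from 0.91 to 1.32 for NOV after siYAP, and between siYAP and siTAZ from 0.50 to 0.70 for CTGF and from 0.50 to 0.92 for NOV. In A549 the changes turned for NOV after siYAP (-0.34 to 0.25), WISP2 after siYAP (-0.64 to 0.38, with the block -0.20 to 0.02), NOV after siTAZ (-0.09 to 0.49) and NOV between siYAP and siTAZ (-0.51 to 0.03). Line differences turned for CTGF after siYAP (-0.69 to 0.15) and, after siTAZ, for NOV (-0.11 to 0.48) and, with the block, CTGF (-0.53 to 0.02). None of those that turned had passed, apart from NOV in A549 after siTAZ and between siYAP and siTAZ, which passed with the block and kept their direction there.

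WISP1 in both lines and WISP2 in H1299 had at most 5 counts in any library, so only an upper limit can be given. That limit was 0.238 to 0.298 CPM in H1299 and, for WISP1, 0.108 to 0.472 CPM in A549. WISP2 had 26.2 to 55.1 CPM in A549 siControl libraries. Assigned reads per library numbered 16.8 to 20.8 M in H1299 and 10.7 to 45.0 M in A549.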
